A study of Homo sapiens with 12 samples.

Results

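The 10 keratin genes KRT5, KRT6A, KRT6B, KRT7, KRT8, KRT15, KRT16, KRT17, KRT18 and KRT19 were followed by RNA-seq in PC9, a human lung adenocarcinoma cell line. They were found by gene symbol in a gene table of 62754 Ensembl identifiers, and all 10 were among the 17115 genes that passed the filter on low counts. The set was chosen by values of these libraries: KRT6A and KRT6B had been seen to be low after 28 days of erlotinib, where their mean levels were 7.50% and 12.5% of those in untreated cells. Differences between the 28-day cells and untreated cells are therefore given for all 10 genes as a description, with no test.

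The series asks how PC9 cells adapt to erlotinib, an inhibitor of the EGFR tyrosine kinase, and what TDP1, a repair enzyme that frees DNA ends from trapped topoisomerase 1, has to do with it. Poly-A RNA was sequenced from 4 groups of 3 replicate cultures each. One group held TDP1 WT cells without drug (untreated WT). A pair of groups held TDP1 WT cells kept in erlotinib at 1 µM, for 7 days in the drug-tolerant cells (DTC) and for 28 days in the drug-tolerant expanded cells (DTEC). The last held a TDP1 knockout line labelled KO2, without drug (KO). All came from a subclonal PC9 line, and the cultures of a condition shared their first flask before they were grown apart, so that p-values measure the spread between such sister cultures. The knockout is 1 line, in which the loss of TDP1 cannot be told apart from other differences of that line, and knockout cells under erlotinib were not analysed here. The libraries held 25572691 to 38373679 counts each. Levels are given in CPM, counts per 1000000 of a library total scaled by the TMM method. The level of TDP1 itself was 26.3 ± 1.60 CPM in untreated WT and 10.8 ± 0.647 CPM in KO (SD, n = 3), and it was 14.0 ± 1.55 CPM in DTC. All 6 epithelial markers examined (EPCAM, CDH1, ESRP1, ELF3, CLDN4 and CLDN7) were detected, with a summed level of 1484 to 1982 CPM per library. Markers of other cell types were also examined, and their levels are given at the end. SFTPC of alveolar type 2 cells, COL1A2 and COL3A1 of fibroblasts and CD3E of T cells were at or under 3 counts in every library. CLDN5 of endothelium was at 0 in all 12, while others such as SFTPB, COL1A1, CSF1R, PECAM1 and CDH5 were detected.

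Keratins are the intermediate filament proteins of epithelial cells. A type II keratin pairs with a type I keratin, and the pairs assemble into filaments that brace the cytoplasm and attach to desmosomes and hemidesmosomes. KRT7 and KRT8 (type II) with KRT18 and KRT19 (type I) are the keratins of simple epithelia and of lung adenocarcinoma. KRT5 (type II) and KRT15 (type I) belong to basal cells, such as the basal cells of the airway. KRT6A and KRT6B (type II) with KRT16 and KRT17 (type I) are known as stress keratins, which keratinocytes make at wound edges and in hyperproliferation. The type II genes lie together on chromosome 12 and the type I genes on chromosome 17, except that KRT18 lies beside its partner on chromosome 12.

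On GRCh38, with spans from GENCODE 29, KRT7 (ENSG00000135480) lay at chr12:52232520-52252186, KRT6B (ENSG00000185479) at chr12:52446651-52452126, KRT6A (ENSG00000205420) at chr12:52487174-52493257 and KRT5 (ENSG00000186081) at chr12:52514575-52520687. KRT8 (ENSG00000170421) at chr12:52897187-52949954 and KRT18 (ENSG00000111057) at chr12:52948871-52952901 lie on opposite strands, and their annotated spans overlap by 1084 bp. The RNA was prepared with a kit that keeps strand, but whether the counting used strand is not given in the sources used here. On chromosome 17, KRT15 (ENSG00000171346) lay at chr17:41513743-41522529, KRT19 (ENSG00000171345) at chr17:41523617-41528308, KRT16 (ENSG00000186832) at chr17:41609778-41615899 and KRT17 (ENSG00000128422) at chr17:41619441-41624842. KRT6B and KRT6A are neighbours 35047 bp apart, and KRT16 and KRT17 are neighbours 3541 bp apart.

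KRT6A and KRT6B are near-identical copies, which bears on how their reads were shared out, so a stretch of each is shown. Their coding sequences of 1692 bases differ at 42 bases (97.5% identity). The window of 60 coding bases with the most differences (coding bases 663 to 722, GRCh38 chr12:52491555-52491614 for KRT6A and chr12:52450439-52450498 for KRT6B, both minus strand) is printed 5′ to 3′ with the 9 bases that differ between KRT6A and KRT6B in capitals. The window was not compared with KRT6C.
KRT6A: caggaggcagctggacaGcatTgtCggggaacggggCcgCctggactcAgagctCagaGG
KRT6B: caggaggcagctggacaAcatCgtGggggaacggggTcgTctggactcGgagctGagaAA
The longest identical run is 269 bases (coding bases 148 to 416). Its first 101 bases, the length of a sequenced read, are shown because a read from here matches both genes equally (KRT6A: chr12:52492941-52493041, minus strand).
KRT6A and KRT6B: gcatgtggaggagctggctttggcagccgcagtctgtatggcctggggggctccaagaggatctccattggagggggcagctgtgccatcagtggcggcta

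Over the principal transcript of each gene, 17.9% of the 101-base words of KRT6A and 24.3% of those of KRT6B also occurred in another gene, mostly KRT6C. The share was 7.06% for KRT16 (KRT14 and pseudogenes), 5.63% for KRT8 (pseudogenes), 1.4% for KRT5 and 0.258% for KRT17. No such word was found for KRT7, KRT15, KRT18 or KRT19. None of the 12 deposited values of KRT5, KRT6A, KRT6B, KRT8 or KRT16 was a whole number, and all 12 were whole for KRT7, KRT17 and KRT19. Whole values did not simply follow the shared words, since KRT15 and KRT18, with none, had 2 and 11 whole values of 12. The deposited expected counts of KRT6A were 696.41, 692.01 and 765.78 in the untreated WT libraries, then 435.64, 329.66 and 419.13 at 7 days (DTC), 47.8, 48.95 and 59.85 at 28 days (DTEC), and 560.61, 615.26 and 764.11 in the knockout. Those of KRT6B were 2424.34, 2408.69 and 2468.71 in the untreated WT libraries, then 942.46, 878.08 and 1023.4 at 7 days, 307.18, 234.92 and 352.25 at 28 days, and 2305.06, 2622.82 and 3199.77 in the knockout. The split between KRT6A and KRT6B is thus an estimate, and their sum is given beside it.

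In the 7-day cells the set changed in both directions. KRT16 and KRT17 rose, KRT8, KRT18, KRT19, KRT5, KRT6A and KRT6B fell, and KRT7 and KRT15 did not pass the test. A keratin counts as changed at an adjusted p under 0.05 (edgeR quasi-likelihood test over all 12 libraries, Benjamini-Hochberg adjustment over 17115 genes). By this rule 8 of the 10 changed between DTC and untreated WT, beside 67.3% of all genes tested, so the number of keratins called is near the background and only the sizes and directions of the single genes are informative. Of the 8, 2 were higher and 6 lower, beside 34% and 33.3% of all genes. The same 8 had groups that did not overlap, beside 68.9% of all genes. Among all calls 50.5% were higher, a share that became 68.4% with scaling by total counts alone and 65.0% with upper-quartile scaling. These scalings raised the median log2 difference of all genes by 0.35 and 0.29. In bulk RNA, fewer cells that express a keratin and less of its RNA per cell cannot be told apart.

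**Figure D1:**
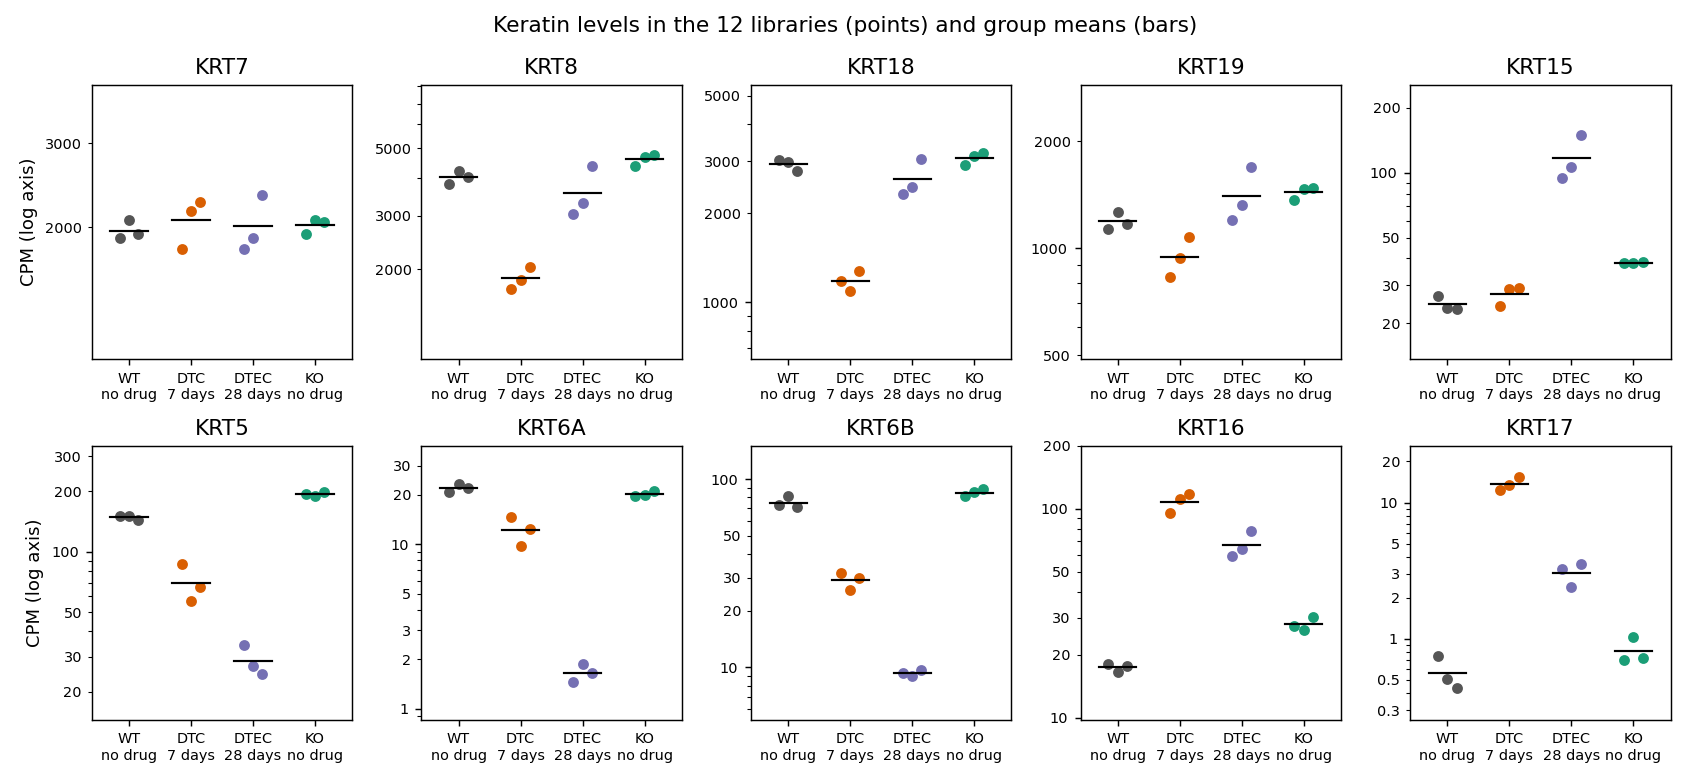
CPM of each of the 10 keratins in the 12 libraries on a log axis, 1 panel a gene, with points for libraries and a bar for the mean of the 3 libraries of a group. KRT7 lies between 1795 and 2339 CPM in all groups, the mean of KRT6A is 22.1 CPM without drug, 12.2 at 7 days and 1.66 at 28 days, and KRT16 and KRT17 are highest in DTC.

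Among the keratins of simple epithelia, the pair KRT8 and KRT18 fell at 7 days while KRT7 did not pass the test. KRT8 stood at 3820, 4210 and 4016 CPM in untreated WT and at 1724, 1845 and 2037 CPM in DTC. All 3 DTC libraries lay below all 3 untreated ones, with a mean of 46.5% of untreated WT (log2 difference -1.10, SE 0.128, edgeR adjusted p = 3.07e-06). KRT18 stood at 3027, 2974 and 2790 CPM in untreated WT and at 1179, 1094 and 1278 CPM in DTC. Its groups did not overlap either, and its DTC mean was 40.4% of untreated WT (log2 difference -1.31, SE 0.115, edgeR adjusted p = 1.78e-07). KRT8 and KRT18, the partner pair of simple epithelia, thus moved by a like amount.

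KRT7, the other type II keratin of simple epithelia, stood at 1898, 2065 and 1931 CPM in untreated WT and at 1801, 2159 and 2255 CPM in DTC. The groups overlapped, and the log2 difference was 0.08 with a 95% interval of -0.18 to 0.33 (edgeR adjusted p = 0.579). With total counts alone it was 0.43 (adjusted p = 0.00487) and with upper-quartile scaling 0.37 (adjusted p = 0.0154), both calls of higher KRT7. KRT19, the smallest keratin, which lacks a tail domain, stood at 1134, 1266 and 1170 CPM in untreated WT and at 829.2, 936.6 and 1073 CPM in DTC. Its DTC libraries all lay below the untreated ones, with a log2 difference of -0.33 (SE 0.131, edgeR adjusted p = 0.0366) that turned to 0.03 (adjusted p = 0.875) with total counts alone. The KRT19 call did not hold in 9 of 14 alternatives. Apart from total counts alone, it was lost with DESeq2 (adjusted p = 0.0556), with upper-quartile scaling (0.803), with the compared libraries only (0.063), and without DTC replicate 1 (adjusted p = 0.155), DTC replicate 2 (0.137), or untreated WT replicate 1 (0.0803), 2 (0.169) or 3 (0.101).

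At 28 days the simple-epithelial keratins stood near their untreated level again. KRT8 was at 3051, 3298 and 4364 CPM in DTEC, and KRT18 at 2325, 2453 and 3049 CPM. Both lay above all DTC libraries, and both overlapped the untreated WT range. Against DTC, KRT8 was higher by 0.93 (SE 0.128, edgeR adjusted p = 2.92e-05) and KRT18 by 1.14 (SE 0.114, adjusted p = 1.56e-06) on the log2 scale. KRT19 was at 1202, 1325 and 1697 CPM in DTEC, above all 3 DTC libraries by 0.57 on the log2 scale (SE 0.131, edgeR adjusted p = 0.00197). KRT7 was at 1795, 1897 and 2339 CPM, a log2 difference from DTC of -0.04 with a 95% interval of -0.29 to 0.21 (edgeR adjusted p = 0.775). Against untreated WT, the described DTEC differences were -0.17 for KRT8 (SE 0.127), -0.17 for KRT18 (SE 0.113), 0.03 for KRT7 (SE 0.117) and 0.24 for KRT19 (SE 0.131). DTEC replicate 3 was the highest library of its group for 8 of the 10 keratins, all but KRT5 and KRT6A. Without it the differences from DTC were 0.73 for KRT8, 0.97 for KRT18 and 0.38 for KRT19, and all 3 kept their calls.

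The basal keratins KRT5 and KRT15 parted under erlotinib. KRT5, the type II keratin of basal cells, stood at 150.1, 151.1 and 143.2 CPM in untreated WT, at 86.4, 56.7 and 66.4 CPM in DTC, and at 34.1, 27.1 and 24.7 CPM in DTEC. Each group lay wholly below the one before. Its log2 difference was -1.08 between DTC and untreated WT (SE 0.144, edgeR adjusted p = 1.17e-05) and -1.29 between DTEC and DTC (SE 0.147, adjusted p = 5.54e-06), and its DTEC mean was 19.3% of untreated WT. KRT15, a type I keratin of basal cells, stood at 26.7, 23.5 and 23.2 CPM in untreated WT, at 24.1, 28.9 and 29.1 CPM in DTC, and at 94.5, 106.7 and 150.4 CPM in DTEC. The first 2 groups overlapped (log2 difference 0.16, 95% interval -0.16 to 0.48, edgeR adjusted p = 0.348), and all DTEC libraries lay above them. With total counts alone the DTC difference of KRT15 was 0.52 (adjusted p = 0.00643) and with upper-quartile scaling 0.45 (adjusted p = 0.0174). Between DTEC and DTC it rose by 2.10 on the log2 scale, 4.28-fold (SE 0.152, edgeR adjusted p = 7.23e-08), and by 1.84 when DTEC replicate 3 was left out. The DTEC mean of KRT15 was 4.79 times that of untreated WT.

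The stress keratins moved apart by type, with the type II genes lower and the type I genes higher at 7 days. KRT6A stood at 20.8, 23.3 and 22.1 CPM in untreated WT and at 14.7, 9.70 and 12.3 CPM in DTC. KRT6B stood at 72.4, 81.2 and 71.2 CPM in untreated WT and at 31.9, 25.8 and 30.0 CPM in DTC. For both genes the groups did not overlap. KRT6A fell to 55.4% of untreated WT (log2 difference -0.85, SE 0.137, edgeR adjusted p = 7.27e-05) and KRT6B to 39.0% (log2 difference -1.36, SE 0.101, adjusted p = 3.36e-08). These tests share the untreated libraries with the comparison in which both genes were noticed. At 28 days KRT6A was at 1.46, 1.87 and 1.64 CPM and KRT6B at 9.35, 8.97 and 9.68 CPM, below every DTC library. The described log2 difference between DTEC and DTC was -2.88 for KRT6A (SE 0.162) and -1.64 for KRT6B (SE 0.106), and that between DTEC and untreated WT was -3.74 (SE 0.163, 13.3-fold lower) and -3.00 (SE 0.109, 8.02-fold lower).

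KRT16, the type I partner of KRT6, stood at 18.0, 16.6 and 17.6 CPM in untreated WT, at 94.96, 111.1 and 117.8 CPM in DTC, and at 59.7, 63.8 and 78.2 CPM in DTEC. The 3 groups did not overlap, with DTC highest and DTEC between DTC and untreated WT. KRT16 rose 6.20-fold at 7 days (log2 difference 2.63, SE 0.125, edgeR adjusted p = 5.63e-10) and was lower by 0.68 on the log2 scale in DTEC than in DTC (log2 difference -0.68, SE 0.117, adjusted p = 0.000214). KRT17, a type I keratin of wound edges and hair follicles, stood at 0.747, 0.506 and 0.433 CPM in untreated WT, at 12.3, 13.3 and 15.4 CPM in DTC, and at 3.26, 2.41 and 3.52 CPM in DTEC. It had the largest rise of the 10 at 7 days, 24.2-fold (log2 difference 4.60, SE 0.242, edgeR adjusted p = 1.33e-09), from a level that was also the lowest of the set per length. From DTC to DTEC it fell 4.44-fold (log2 difference -2.15, SE 0.202, adjusted p = 8.66e-07). Against untreated WT the described DTEC levels were 3.86 times as high for KRT16 and 5.44 times as high for KRT17.

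Between DTEC and DTC, 8 keratins were tested, leaving out KRT6A and KRT6B. KRT8, KRT15, KRT18 and KRT19 rose and KRT5, KRT16 and KRT17 fell, so 7 of 8 were called, beside 55.4% of all genes tested (28.8% higher and 26.6% lower). The groups of the same 7 did not overlap, beside 56.6% of all genes. Among all calls 51.9% were higher, against 37.4% with total counts alone and 38.7% with upper-quartile scaling, with shifts of the all-gene median of -0.19 and -0.17. These tests use the DTEC libraries in which KRT6A and KRT6B were noticed.

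**Figure D2:**
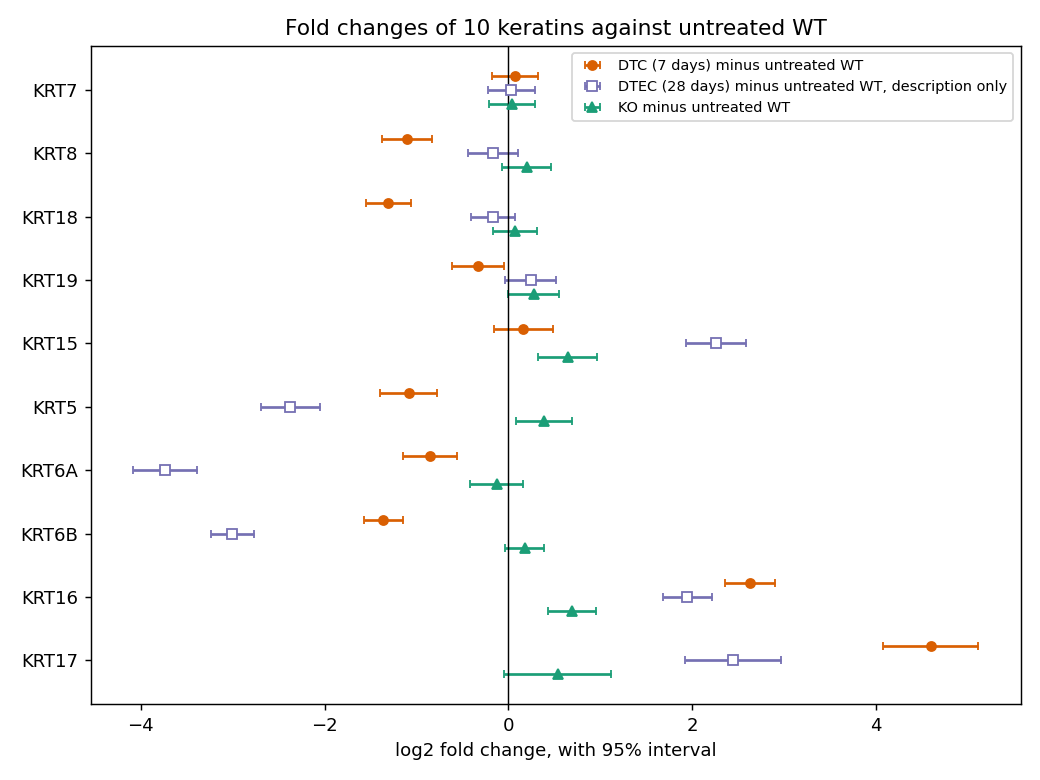
Log2 fold change of each keratin against untreated WT with its 95% interval from the edgeR fit, for DTC (filled circles), DTEC (open squares, a description) and KO (triangles), 3 libraries a group. KRT8 and KRT18 lie at -1.10 and -1.31 in DTC and at -0.17 in DTEC, KRT15 moves from 0.16 to 2.26, KRT6A from -0.85 to -3.74, and KRT17 from 4.60 to 2.44.

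Summed over the 10 genes, keratins took 0.937% ± 0.0393 of the counts of untreated WT, 0.730% ± 0.0686 of those of DTC, 0.996% ± 0.166 of those of DTEC and 1.09% ± 0.0403 of those of KO (SD, n = 3 each). These are shares of library totals without TMM scaling. In TMM-scaled CPM the sum was 10388 ± 367, 6331 ± 560, 9826 ± 1667 and 11512 ± 476 in the same order. Of this sum over the 10 genes, KRT7, KRT8, KRT18 and KRT19 made up 97.2% without drug, 95.9% at 7 days, 97.7% at 28 days and 96.8% in the knockout. Keratin genes outside the 10 are not in this sum, among them KRT81 (means 465 CPM in untreated WT and 554 in DTC) and KRT80 (121 and 231 CPM). The basal and stress keratins described above were thus a minor share of the RNA of these 10 keratins in all 4 groups.

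Ratios within a library do not depend on how its total was scaled. The KRT8 to KRT18 ratio of CPM was 1.37 ± 0.0963 without drug, 1.58 ± 0.112 at 7 days, 1.36 ± 0.0617 at 28 days and 1.49 ± 0.00789 in KO (SD, n = 3 each), so the pair stayed close in all groups. KRT7 over KRT8 was 0.489 ± 0.00801 in untreated WT, 1.11 ± 0.0626 in DTC and 0.567 ± 0.0274 in DTEC, and the DTC libraries lay above all others. KRT19 over KRT18 was 0.407 ± 0.0279, 0.800 ± 0.0837 and 0.538 ± 0.0200 in the same order. The sum of KRT6A, KRT6B and KRT6C does not depend on how reads were split among these 3 genes, although 1.24% of the 101-base words of KRT6B and 0.181% of those of KRT6A also occur in KRT5. It was 97.4 ± 6.46 CPM in untreated WT, and 41.9 ± 5.59 and 11.0 ± 0.272 CPM at 7 and 28 days, with 106 ± 4.43 CPM in KO. Over KRT16 this sum was 5.62 ± 0.616 in untreated WT, 0.394 ± 0.0898 in DTC and 0.166 ± 0.0188 in DTEC. The DTC libraries lay below all untreated WT ones. The DTEC sum and ratio are a description only, because low KRT6A and KRT6B at 28 days chose the set. KRT5 over KRT15 was 6.07 ± 0.418, 2.61 ± 0.863 and 0.260 ± 0.0986 in the same 3 groups. For each of these ratios the exact two-sided permutation p between DTC and untreated WT was 0.1, the smallest that 3 against 3 libraries allow.

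**Figure D3:**
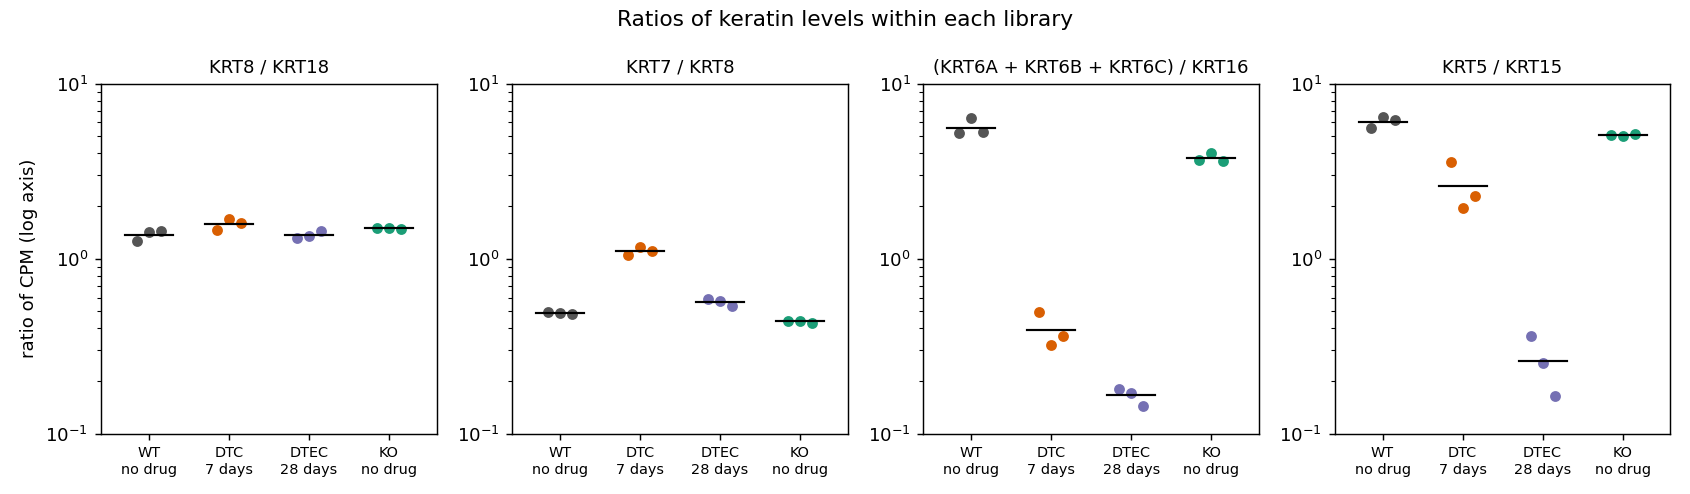
Ratio of CPM between keratins within each library on a log axis, with points for libraries and bars for group means. KRT8 over KRT18 stays between 1.26 and 1.69 in all 12 libraries, KRT7 over KRT8 is highest in DTC, and the KRT6 sum over KRT16 and KRT5 over KRT15 are lowest in DTEC.

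Divided by the length of all exons of a gene, the levels in untreated WT ran from KRT18 at 911 ± 38.6 CPM per kb, through KRT8 at 584 ± 28.3, KRT19 at 509 ± 29.3 and KRT7 at 480 ± 21.6 (SD, n = 3), to KRT5 at 34.5 ± 0.997 and KRT6B at 32.8 ± 2.40. Below these came KRT6A at 7.54 ± 0.433, KRT16 at 7.03 ± 0.298, KRT15 at 3.46 ± 0.276 and KRT17 at 0.179 ± 0.0525 CPM per kb. The libraries of KRT19 and KRT7, of KRT5 and KRT6B, and of KRT6A and KRT16 overlapped, so these neighbours in the order were not separated. In DTC the order opened with KRT7 at 506 ± 58.3, KRT19 at 405 ± 52.4, KRT18 at 368 ± 28.6 and KRT8 at 272 ± 23.0 CPM per kb, followed by KRT16 at 43.6 ± 4.74. There the libraries of KRT7 and KRT19, of KRT19 and KRT18, and of KRT5 and KRT6B overlapped, as did those of KRT17, KRT6A and KRT15 at the end of the order. In DTEC it opened with KRT18 at 811 ± 120, and KRT15 at 16.6 ± 4.16 stood above KRT5 at 6.67 ± 1.14 and KRT6A at 0.566 ± 0.0708. The libraries of KRT18 and KRT19, of KRT19 and KRT8, and of KRT8 and KRT7 overlapped in DTEC. The order depends on the length used: with the length of the principal transcript, 6 of the 10 keratins took another place in untreated WT and 2 in DTC.

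In the untreated TDP1 knockout line KRT16 and KRT15 rose, and the other 8 keratins did not pass the test. KRT16 stood at 27.5, 26.3 and 30.4 CPM in KO, above all 3 untreated WT libraries, and rose by 0.69 on the log2 scale (SE 0.121, edgeR adjusted p = 0.00506). KRT15 stood at 38.2, 37.97 and 38.6 CPM, also above untreated WT, with a log2 difference of 0.64 (SE 0.149, edgeR adjusted p = 0.0243). These were 2 of 10 keratins called, both higher, beside 4.31% of all genes called and 2.76% called higher. The KRT15 call was lost when any 1 of the 6 compared libraries was left out (adjusted p 0.0593 to 0.112, smallest without untreated WT replicate 1 and largest without untreated WT replicate 3), while that of KRT16 was kept. Fitted on the 6 compared libraries only, 5 keratins were called higher (KRT5, KRT8, KRT15, KRT16 and KRT19), beside 17.5% of all genes in that fit. Among all calls 64.1% were higher, against 78.8% with total counts alone, 52.6% with the 6 libraries only, and 72.5% to 75.4% with 1 library left out.

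Of the other keratins in KO, KRT5 stood at 194.0, 190.1 and 198.7 CPM, above the untreated WT libraries, with a log2 difference of 0.39 (95% interval 0.09 to 0.70, edgeR adjusted p = 0.162, or 0.0448 with no count filter). KRT8 (0.20, interval -0.07 to 0.47) and KRT19 (0.28, interval -0.0035 to 0.56) also lay above untreated WT in all 3 libraries. The groups of 5 of the 10 keratins thus did not overlap, beside 35.7% of all genes. KRT7 (0.04, interval -0.21 to 0.29), KRT18 (0.07, interval -0.17 to 0.31), KRT17 (0.54, interval -0.05 to 1.12), KRT6B (0.18, interval -0.03 to 0.39) and KRT6A (-0.12, interval -0.41 to 0.16) overlapped. KRT6A was at 19.7, 19.9 and 21.1 CPM and KRT6B at 80.9, 84.9 and 88.5 CPM in KO, so the low levels of the 28-day cells were not found in the untreated knockout. With the reads of KRT6A, KRT6B and KRT6C summed, the KO difference was 0.12 (edgeR adjusted p = 0.62), of the opposite sign to KRT6A alone.

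The pattern of each keratin over the 12 libraries was compared with that of the others by the root mean squared distance of centred log2 CPM, a measure with no test in which a small value means like profiles. Of 45 pairs KRT8 and KRT18 were the closest, at 0.111 log2 units. KRT5 and KRT6B followed at 0.257 and KRT7 and KRT19 at 0.259. KRT6A and KRT6B were at 0.448 from each other although they share reads, and KRT6B and KRT17 were the farthest apart at 2.73.

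Outside the keratins, 9706 genes with a mean of at least 10 CPM were compared with KRT6A and KRT19 in the same way. The nearest to KRT6A were FABP5 (a fatty acid binding protein of epidermis, distance 0.535), HSD3B1 (a steroid dehydrogenase, 0.582), EPDR1 (0.707), TRBC2 (a T cell receptor constant gene, 0.730) and GAL (the neuropeptide galanin, 0.765). FABP5 had mean levels of 41.8 CPM without drug, 12.6 at 7 days, 3.30 at 28 days and 22.7 in the knockout. The nearest to KRT19 were FGD3 (0.0597), MGAT4B (0.0662), DHPS (0.0931), ACTR1B (0.0984) and ARHGEF16 (0.101). KRT19 thus had much closer neighbours than KRT6A, whose range over the groups was wider.

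Of the 44 other keratin genes listed, 18 passed the filter on low counts. Between DTC and untreated WT, 9 of these 18 were called higher and 2 lower, beside 34% and 33.3% of all genes, with a median log2 difference of 0.69 beside 0.06 for all genes. KRT4, a type II keratin of non-cornified stratified epithelium, rose from 0.488 ± 0.251 to 8.25 ± 0.630 CPM (log2 difference 4.06, SE 0.333, edgeR adjusted p = 9.03e-08), and the hair keratin KRT33B from 0.0484 ± 0.0599 to 1.02 ± 0.188 CPM (log2 difference 4.23, SE 0.904, adjusted p = 0.000831). The untreated WT level of KRT33B rests on few counts (0.0299, 0 and 0.115 CPM), and the 95% interval of its log2 difference was 2.29 to 6.17. KRT13, the type I partner of KRT4, fell from 22.5 ± 1.74 to 7.39 ± 1.05 CPM (log2 difference -1.60, SE 0.380, edgeR adjusted p = 0.00274), and KRT78 fell from 1.97 ± 0.495 to 0.547 ± 0.143 CPM (log2 difference -1.84, adjusted p = 0.000757). KRT4 and KRT13, like KRT6 and KRT16, thus moved in opposite directions at 7 days.

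At 28 days most of these other keratins were lower than at 7 days: 12 of the 18 were called lower and 2 higher, beside 26.6% and 28.8% of all genes, with a median log2 difference of -1.48 beside -0.01 for all genes. KRT77 was at least 7.49-fold lower and KRT6C at least 4.36-fold lower in DTEC, bounds taken against 3 counts a library because the DTEC libraries were at or under that count. KRT13 rose to 32.1, 67.0 and 128.3 CPM in the 3 DTEC libraries, a log2 difference from DTC of 3.36 (SE 0.394, edgeR adjusted p = 2.46e-05) and of 2.70 without DTEC replicate 3. KRT23 rose to 147 ± 18.3 CPM from 78.7 ± 3.79 in DTC (log2 difference 0.90, edgeR adjusted p = 4.16e-06). A pair of further genes was picked after their values were seen. KRT81, a hair keratin, was at 465 ± 61.6 CPM without drug, 554 ± 157 at 7 days and 189.9 ± 13.6 at 28 days. Its 7-day difference from untreated WT did not pass the test (log2 difference 0.25, edgeR adjusted p = 0.208). KRT34, another hair keratin, was at 3.49 ± 0.202 CPM without drug, 51.3 ± 5.96 at 7 days and 6.22 ± 2.76 at 28 days.

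In KO, 2 of the 18 other keratins were called, beside 4.31% of all genes, both higher: KRT4 (log2 difference 1.38, edgeR adjusted p = 0.0389) and KRT23 (0.66, adjusted p = 0.00196). With the compared libraries only, 5 of 15 tested were called higher, beside 17.5% of all genes called in that fit. In the fit over all 12 libraries the median log2 difference of the 18 was 0.67, beside -0.01 for all genes. It was 0.55 when genes at or under 3 counts took their bound, and 0.44 for the 15 with the compared libraries only. The KRT4 call was lost without KO replicate 1 (adjusted p = 0.0567), 2 (0.137) or 3 (0.127), and without untreated WT replicate 2 (0.132) or 3 (0.162).

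**Figure D4:**
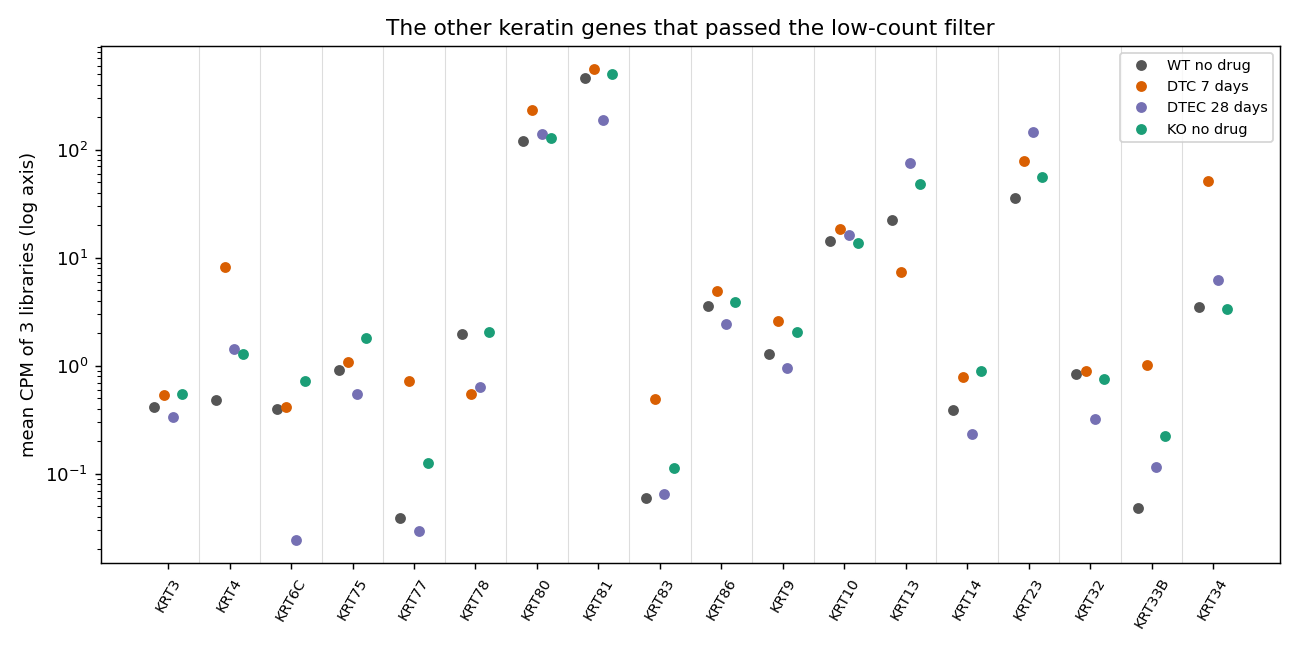
Mean CPM of the 18 other keratins that passed the filter, in the 4 groups (colours, 3 libraries each), on a log axis. KRT4, KRT33B and KRT34 stand highest in DTC, KRT13 and KRT23 in DTEC, and KRT6C is at 0.0247 CPM in DTEC.

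The proteins that anchor keratin filaments did not move as one. Of 16 tested among 19 listed, 6 were called higher and 7 lower in DTC, beside 34% and 33.3% of all genes. With total counts alone 8 were higher and 3 lower, beside 68.4% of all genes called in that fit, where 68.4% of all calls were higher. The median log2 difference of -0.17 became 0.19 with total counts alone and 0.12 with upper-quartile scaling. COL17A1 and ITGA6, both parts of hemidesmosomes, moved in opposite directions: COL17A1 rose from 3.39 ± 0.164 to 33.0 ± 7.26 CPM (log2 difference 3.28, SE 0.274, edgeR adjusted p = 1.9e-07), while ITGA6 fell from 1256 ± 75.9 to 129 ± 49.5 CPM (log2 difference -3.28, SE 0.215, adjusted p = 1.57e-08). In DTEC against DTC, 3 were called higher (ITGA6 by 2.23, its partner ITGB4 by 1.38 and TCHP by 0.74 on the log2 scale), beside 28.8% of all genes. Another 5 were lower, beside 26.6% of all genes: the plakin EPPK1 at -2.18, COL17A1 at -1.78, and the desmosome genes DSC2 at -1.01, DSP at -0.56 and JUP at -0.56. In KO, edgeR over all 12 libraries called none of the 16, beside 4.31% of all genes. At an unadjusted p under 0.05 there were 5, a count given without its share over all genes. DESeq2 and total counts alone each called 1 higher, beside 6.71% and 5.01% of all genes called. On the compared libraries only, edgeR called 1 higher and 3 lower, beside 17.5% of all genes. With no count filter 1 was higher and 1 lower, beside 3.65% of all genes.

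Genes of the squamous programme, which accompany stress and basal keratins in stratified epithelia, were also mixed. Of 19 tested among 22 listed, 8 were called higher and 7 lower in DTC, beside 34% and 33.3% of all genes. With total counts alone 10 were higher and 1 lower, and with upper-quartile scaling 9 and 1. In these fits 68.4% and 68.0% of all genes were called, and 68.4% and 65.0% of all calls were higher. The cornified envelope genes SPRR3 and SPRR1A rose most, SPRR3 from 0.459 ± 0.183 to 8.09 ± 1.16 CPM (log2 difference 4.13, SE 0.310, edgeR adjusted p = 3.76e-08) and SPRR1A from 0.628 ± 0.168 to 6.27 ± 0.209 CPM (3.31, SE 0.328, adjusted p = 6.09e-07). In DTEC against DTC 7 were called higher and 10 lower, beside 28.8% and 26.6% of all genes, led by SPRR3 at -4.51 and SPRR1B at -4.16 on the log2 scale. In KO 1 gene was called, beside 4.31% of all genes: TRIM29, which was lower (log2 difference -0.69, SE 0.098, edgeR adjusted p = 0.00117). With the compared libraries only, 2 of 17 tested were higher and 2 lower, beside 17.5% of all genes called in that fit.

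Of 11 other intermediate filament genes tested among 16 listed, all 11 were called in DTC, beside 67.3% of all genes. Of these 6 were higher and 5 lower, beside 34% and 33.3%. The 5 lower were the nuclear lamins LMNB1 (log2 difference -2.53), LMNB2 (-1.97) and LMNA (-1.28) and the neuronal filament genes NEFH (-1.48) and INA (-0.65). The largest rise was that of the muscle gene DES (2.79), at under 1 CPM in all libraries. VIM, the filament of mesenchymal cells, was at 10.4 ± 0.496 CPM without drug, 48.3 ± 3.13 at 7 days and 14.0 ± 4.93 at 28 days. Against DTC, 4 were called higher in DTEC (LMNB1 by 1.66, NEFH by 1.43, LMNB2 by 0.78 and LMNA by 0.68) and 5 lower (VIM at -1.79, DES at -1.63, SYNM at -1.42, SYNC at -1.38 and BFSP1 at -1.31 on the log2 scale), beside 28.8% and 26.6% of all genes. The DES call was lost with DESeq2 (adjusted p = 0.0607), with no count filter (0.0559), and without DTC replicate 2 (adjusted p = 0.103) or 3 (0.112) or DTEC replicate 1 (0.121) or 2 (0.131), and the SYNC call without DTC replicate 3 (0.0642) or DTEC replicate 2 (0.0797). In KO, edgeR over all 12 libraries and DESeq2 called none of the 11, beside 4.31% and 6.71% of all genes. At an unadjusted p under 0.05 edgeR had 2, a count given without its share over all genes. On the compared libraries only, edgeR called 1 higher and 2 lower of 8 tested, beside 17.5% of all genes called in that fit.

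Markers of other cell types moved with the groups. The summed level of the 6 fibroblast markers was 7.99 to 8.91 CPM without drug, 55.0 to 57.8 at 7 days, 11.1 to 14.1 at 28 days and 13.5 to 15.1 in the knockout, nearly all of it COL1A1 (means 8.30, 55.7, 12.4 and 13.8 CPM in that order), while COL1A2 and COL3A1 stayed at or under 3 counts. The summed level of the 6 immune markers was 0.405 to 1.31 CPM in untreated WT and 10.3 to 12.7 in DTC. It was then 2.54 to 3.36 in DTEC and 0.741 to 1.69 in KO. Most of the DTC sum was CSF1R (means 0.384, 9.57, 1.66 and 0.771 CPM in that order). LYZ (0.217, 1.36, 0.654 and 0.263 CPM) was also highest in DTC, as was CD14 (0.173, 0.738, 0.340 and 0.169 CPM), while CD3E was at or under 3 counts. The 5 endothelial markers summed to 58.5 to 61.4 CPM without drug, 42.1 to 50.1 at 7 days and 122 to 142 at 28 days, above the levels of KRT5, KRT6B, KRT16 and KRT17 there, and to 75.8 to 77.2 CPM in the knockout. Most of it was PECAM1 (means 32.0, 8.77, 92.1 and 48.4 CPM in the same order) and CDH5 (27.7, 35.0, 36.7 and 28.0 CPM), while CLDN5 was at 0. The 5 alveolar markers summed to 1.21 to 2.33 CPM without drug, 1.49 to 2.72 at 7 days, 12.3 to 17.5 at 28 days and 5.51 to 7.54 in the knockout. Of these SFTPB, a surfactant protein gene, had means of 1.51, 0.0695, 14.1 and 6.38 CPM in the same order, and SFTPC was at or under 3 counts. NAPSA had means of 0.127, 1.62, 0.541 and 0.244 CPM and NKX2-1 of 0.0312, 0.366, 0.0458 and 0.0117 CPM. Both were thus highest in DTC, where SFTPB was lowest. NKX2-1 was at or under 3 counts in untreated WT, DTEC and KO. The mean of SFTPA1 was 0.0936 CPM in DTC and 0 in the other groups. The part of these shifts in the keratin results was not tested.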

How the data were processed

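Poly-A RNA of 12 PC9 cultures was sequenced as paired reads of 101 bases, per the labels' protocols. The authors deposited 1 table of expected counts per gene, which are estimated counts that need not be whole. RSEM 1.3.1, Bowtie2 2.5.2, DESeq2 1.40.2 and GRCh38 are named, without their roles, per the submitters' processing notes. How reads that match several genes, or strand, were handled is not given in the sources used here.

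Symbols were found for 62700 of 62754 identifiers, and 58261 were in GENCODE 29. Values were rounded to whole counts and fitted with edgeR 4.0.16 (R 4.3.3) over all 12 libraries with 1 mean per group, TMM scaling, filterByExpr and robust quasi-likelihood, and p-values were adjusted by Benjamini-Hochberg over 17115 genes. CPM came from the unrounded values. A whole number means one within 1e-09. The fit was also run on simulated data, with an outcome not given here. Few genes were changed in that simulation, equally in both directions, so it cannot test the choice of scaling. Alternatives were DESeq2 1.42.0, other scalings, no filter beyond 1 count, the 6 compared libraries only, a replicate block, limma 3.58.1 on unrounded values, summed paralog and pseudogene reads, other gene lengths, and leaving out each library.

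The members, lists and markers were chosen with earlier results of these data known. Named are all 10 keratins and, per list and comparison, the 2 called genes with the largest log2 change, a count of 5 or fewer being named in full. Nearest genes are the 5 of smallest distance with a mean of at least 10 CPM. The floor is 3 counts a library. No column of another sample was present.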

Additional observations from a re-analysis of the deposited data

Results flagged for a closer look

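The keratins whose change against untreated WT differed between 7 and 28 days, by the test of DTEC against DTC, were KRT15 (log2 difference 2.10), KRT18 (1.14), KRT8 (0.93) and KRT19 (0.57), which were higher at 28 days, and KRT17 (-2.15), KRT5 (-1.29) and KRT16 (-0.68), which were lower. No group of 4 or more libraries exists, so no library could be tested as standing apart.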

How the results depend on the processing

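The 28 tests of keratins were repeated under 14 alternatives each, which gave 392 values. Of these, 365 kept their direction and side of the threshold, 14 lost the call, 9 gained one and 4 changed sign. The changes of sign were KRT19 in DTC against untreated WT with total counts alone (0.025), KRT6A in KO with paralog reads summed (0.12), and KRT7 in DTEC against DTC without DTC replicate 3 (0.0019) or DTEC replicate 1 (0.0242), in a range of -0.204 to 0.0242 over the fits that left out a library. The number of keratins called in KO, 2 as reported, was 5 with the compared libraries only, beside 17.5% of all genes in that fit. It was 1 in each fit that left out a library, beside 1.81% to 2.40% of all genes. With no count filter KRT5 was called as well, as given above, beside 3.65% of all genes in that fit. With the reads of KRT14, KRT16 and KRT17 summed, the DTC difference of KRT17 became 2.65, that of all 3 genes together. For 40 listed genes named above, 545 of 559 values kept their call and 14 lost it, with no change of sign. The cause of these changes was not tested.

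With the replicate number as a replicate block the numbers of keratins called were 8 in DTC, 2 in KO and 7 in DTEC against DTC. The shares of all genes called in these fits were 68.8%, 5.18% and 56.9%. The adjusted p of DES between DTEC and DTC was 0.0513 with this block, and 1 anchor gene was called in KO. Whether the replicate numbers pair the libraries was not tested. Deviations of same-numbered libraries from their group means correlated at -0.03 to 0.18 over genes in 18 pairs, 4 of them over 0.1. In the 36 other pairs the correlations ran from -0.19 to 0.12. For 5 of 12 libraries the library of the same number correlated best in every other group. With 3 libraries a group, no exact test of a single value can go below 0.1. The level of KRT17 in untreated WT rests on few counts, and the KRT6A to KRT6B split on the authors' estimate.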
